A study of Schizosaccharomyces pombe with 6 samples.

Results

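The genes tlh1 and tlh2 encode near-identical RecQ-type DNA helicases of the fission yeast Schizosaccharomyces pombe. They lie in the subtelomeres, the stretches of chromosome next to the telomere repeats. Every probe set of the deposited table whose gene symbols in the platform annotation include tlh1 or tlh2 was taken. This gave 4 of the 2936 S. pombe probe sets, all listed under tlh2 (SPBCPT2R1.08C) and none under tlh1 (SPAC212.11). Because the copies are near-identical, signal on these probe sets cannot be assigned to 1 copy, and they are called tlh2 probe sets here only because the annotation does so. The genes were chosen by their signal in the strain lacking fkh2, so values of the tlh2 probe sets that involve this strain are a description, with no test. In genes, this is 1 of 2899 with a listed probe set.

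Cells in mid-log growth in YEL, a rich medium, gave the total RNA for 6 Affymetrix yeast arrays in 3 groups of 2. The groups were the fkh2-S2A mutant (strain CG 209), fkh2delta (strain CG 116) and wild type (strain CG 209). The same strain number stands for fkh2-S2A and wild type, so it does not tell these genotypes apart. The forkhead protein Fkh2 controls genes transcribed periodically around mitosis. The S2A change itself and the construction of the strains are not described in the labels. Nothing states that replicate arrays were separate cultures, and the p-values then cover only array-to-array spread, possibly technical. Values are on a log2 scale, and the number of arrays limits their precision. As background, each array had a level below which 95% of 2601 probe sets listed with no S. pombe gene fell, between 5.17 and 5.35.

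The labels were checked on the deleted gene and on a strain marker. The fkh2 signal was 7.47 and 7.76 in fkh2-S2A, 4.34 and 4.05 in fkh2delta and 7.53 and 7.39 in wild type. Only the fkh2delta arrays lay below background for fkh2. The signal of ura4, a gene of uracil synthesis often used as a marker in strain building, was 12.83 and 12.85 in fkh2-S2A, 5.40 and 6.17 in fkh2delta and 12.79 and 12.56 in wild type. The fkh2delta strain therefore differs from the others in strain name and in ura4 as well as in fkh2, and these differences cannot be told apart. Neither check bears on which arrays carry the fkh2-S2A allele.

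Subtelomeric chromatin in fission yeast is packed as heterochromatin, which carries methylation of histone H3 at lysine 9 and keeps the genes inside it silent. The Clr4 methyltransferase places this mark, the HP1 protein Swi6 reads it, and the RNA interference machinery and the telomere protein Taz1 are both known to start it at chromosome ends. The tlh genes contain a stretch similar to the centromeric repeats, from which silencing starts. They are known to be nearly silent in wild-type cells and to be transcribed when heterochromatin is lost or when telomerase-negative cells survive on rearranged telomeres.

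In the reference annotation (assembly ASM294v3, used for names, lengths and gene order) tlh1 is the first gene at the left end of chromosome I. The tlh2 gene is the outermost protein-coding gene at the right end of chromosome II, with 11 non-coding genes annotated beyond it. The gene models are 5662 bases long for tlh1 and 6015 for tlh2, longer than 98.5% and 98.8% of the 5113 protein-coding nuclear genes. Non-coding RNA genes overlap both, 6 at tlh1 and 7 at tlh2. Where within the gene each probe set lies, and which strand a neighbouring transcript would need to be read from, is not known here.

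The probe set 1775967_at is described first because it had the highest mean over the arrays, the rule by which it also stood for the genes in the search for similar profiles. It read 4.30 and 4.50 in fkh2-S2A, 10.70 and 11.05 in fkh2delta and 4.27 and 3.94 in wild type. The fkh2delta arrays were far above the other 4, which all lay below background. Since RNA of whole cultures was measured, a high level in few cells and a lower level in many cannot be told apart.

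The difference between the fkh2delta mean and the wild-type mean was 6.77 ± 0.15 (standard error, SE, of the linear model, n = 2 arrays each). Since wild type was below background, this probe set was at least 46.2-fold higher in fkh2delta than in wild type, when each reading under background is raised to that level. By the same rule the fkh2-S2A signal was at least 50.1-fold lower than that of fkh2delta.

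The probe set 1779068_s_at was likewise above background in fkh2delta alone. It read 4.15 and 3.87 in fkh2-S2A, 9.54 and 9.63 in fkh2delta and 4.38 and 4.39 in wild type. Affymetrix gives the ending _s_at to probe sets that match more than 1 transcript, as near-identical copies do. The difference between fkh2delta and wild type was 5.20 ± 0.11 in the fit, and at least 18.9-fold by the bound. The bound for fkh2-S2A against fkh2delta was at least 20.5-fold lower.

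The third probe set, 1775264_s_at, also carries the ending for shared transcripts. It read 5.11 and 4.84 in fkh2-S2A, 6.88 and 7.05 in fkh2delta and 4.76 and 4.81 in wild type. All 4 arrays outside fkh2delta again lay below background, though the first fkh2-S2A array did so by a small margin (5.11 against a background of 5.19). The difference between fkh2delta and wild type was 2.18 ± 0.12 in the fit, and at least 3.08-fold by the bound.

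The last probe set, 1778554_at, did not follow the others. It read 3.68 and 4.21 in fkh2-S2A, 4.20 and 4.16 in fkh2delta and 3.89 and 3.70 in wild type. No array rose above background, the fkh2-S2A values spanned those of both other groups, and no fold is given. Of the 4 probe sets listed under 1 gene symbol, 3 were above background in fkh2delta and 1 was not detected on any array. Over all S. pombe probe sets 64.0% were called between fkh2delta and wild type and 49.1% between fkh2-S2A and fkh2delta, and nothing is read from the number of tlh2 probe sets against these shares, since fkh2delta values chose them.

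**Figure D1:**
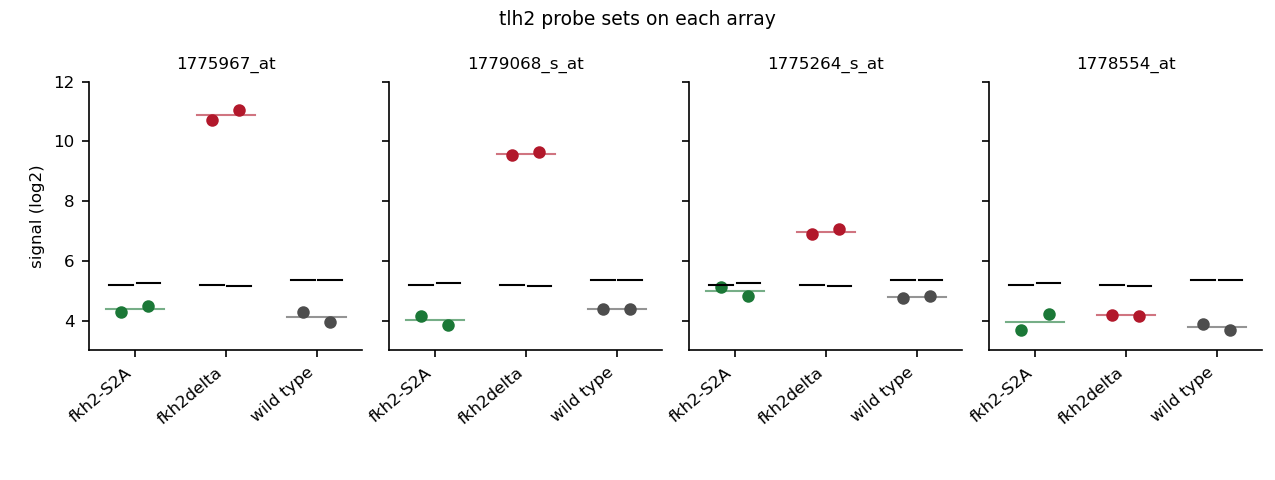
Signal (log2) of the 4 tlh2 probe sets on each array. Points are arrays, coloured lines are group means of 2 arrays, and short black lines are each array's background level. The fkh2delta arrays lie above background for 1775967_at, 1779068_s_at and 1775264_s_at, and every other point lies below it.

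The Pearson correlations among the 3 detected probe sets over the 6 arrays lay between 0.988 and 0.993, which describes little more than the shared step between fkh2delta and the other 4 arrays. With 1778554_at the correlations were 0.594 to 0.666. The level of one probe set is not comparable with that of another, because probes differ in how strongly they bind, and the bounds from 3.08-fold to 46.2-fold give no single size for the gene.

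The tlh2 probe sets were compared with the rest of the S. pombe probe sets in fkh2delta. Of these, 54 were below background on both wild-type arrays and above it on both fkh2delta arrays, and 4 did the reverse. For 36 probe sets the fkh2-S2A arrays were below background too, and 3 of the 4 tlh2 probe sets are among them. The fkh2delta values chose the tlh2 probe sets, so nothing is read from their being among these.

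**Figure D2:**
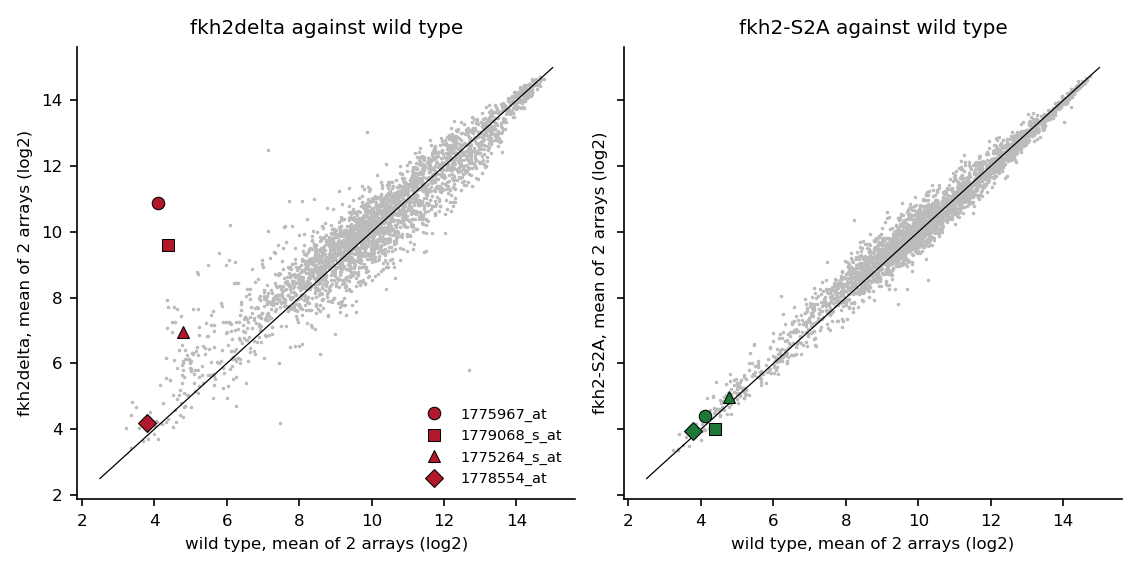
Mean signal (log2, 2 arrays) of all 2936 S. pombe probe sets in fkh2delta (left) and fkh2-S2A (right) against wild type, with the line of equal signal. The tlh2 probe sets are marked by shape. In fkh2delta 1775967_at and 1779068_s_at stand far above the line at the dim end, while in fkh2-S2A all 4 lie at the dim end near the line.

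The readings of the tlh2 probe sets were also compared in fkh2-S2A against wild type. Every reading of these groups was below background, so no fold is given. For the same reason the p-values cannot tell whether the transcripts differ. The differences were 0.29 ± 0.15 for 1775967_at (limma adjusted p = 0.171), 0.19 ± 0.12 for 1775264_s_at (adjusted p = 0.254) and 0.15 ± 0.16 for 1778554_at (adjusted p = 0.517), none of which passed. Without fkh2-S2A replicate 1 the difference of 1778554_at was 0.42 and passed, and without fkh2-S2A replicate 2 it was -0.11 and did not. The probe set 1779068_s_at was lower in fkh2-S2A (-0.38 ± 0.11) and passed (adjusted p = 0.0318), but it failed under 7 of 13 alternatives, with differences from -0.57 to -0.24. Over all S. pombe probe sets 33.3% were called in this comparison, so 1 of 4 is not above the background share.

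A measure of RNA quality moved with fkh2delta. Averaged over 6 control genes, the signal at the 3′ end minus that at the 5′ end was 1.34 and 1.24 in fkh2-S2A, 1.53 and 1.61 in fkh2delta and 1.27 and 1.27 in wild type. Signal also followed gene length differently between arrays, with slopes per doubling of gene length of 0.070 and 0.11 in fkh2-S2A, -0.074 and -0.061 in fkh2delta and -0.034 and -0.0095 in wild type. With the length trend removed, the difference of 1775967_at between fkh2-S2A and fkh2delta was -6.74, against -6.48 as deposited. The part of RNA quality in the tlh2 signal was not tested.

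The neighbourhood of the tlh genes was examined next, to see whether other genes near the chromosome ends moved the same way. Of 122 protein-coding genes annotated within 100 kb of the outermost gene at each end of chromosomes I and II, together with non-coding genes, 19 genes besides tlh2 had a named probe set. The nearest of them to tlh2 was gal1, the 12th protein-coding gene from its end, and the nearest to tlh1 was nhe1, the 19th from its end. The genes directly beside the tlh copies are thus not covered by named probe sets. At the ends that carry tlh1 and tlh2, none of these genes lay within 50 kb of the outermost annotated gene.

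These genes, taken by position but with earlier results of these data known, moved in both directions in fkh2delta. Of the 19, 6 were higher and 11 lower than in wild type, beside 40.4% higher and 23.6% lower over all probe sets. Their median difference was -0.41, against 0.16 over all probe sets. With each array centred on its median, the subtelomeric median was -0.53 and that of all probe sets 0.03. Each tlh end held genes of both directions.

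At the end that carries tlh1, isp3, the gene of a spore coat protein, read 7.84 and 7.49 in fkh2delta against 4.79 and 4.44 in wild type. It was at least 4.99-fold higher in fkh2delta (adjusted p = 1.37e-06, limma, here and below). The siderophore-iron transporter gene str3 was higher by 2.86 ± 0.30 (adjusted p = 6.65e-05), and the hexose transporter gene ght3 by 0.60 ± 0.12 (adjusted p = 0.00199, lost in 1 of 13 settings). Closer to the end, the dihydroxyacetone kinase gene dak2 (-0.76 ± 0.16, adjusted p = 0.00273) and the sodium/proton antiporter gene nhe1 (-0.64 ± 0.12, adjusted p = 0.00125) were lower. The genes nearer to tlh1 were thus the lower ones at this end.

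At the end that carries tlh2, 2 genes of the galactose cluster rose and 1 fell. The galactokinase gene gal1 read 11.32 and 11.50 in fkh2delta against 9.90 and 9.59 in wild type, a rise of 1.66 ± 0.12 (adjusted p = 1.54e-05). The epimerase gene gal10 rose by 1.36 ± 0.15 (adjusted p = 9.74e-05), although only 1 wild-type array exceeded background. The uridylyltransferase gene gal7, which lies close by, was lower (-0.46 ± 0.13, adjusted p = 0.0137), a call lost in 2 of 13 other settings. Farther in, say1 was lower (-0.49 ± 0.13, adjusted p = 0.00916, lost in 2 of 13 settings). The probe set listed for the acid phosphatase gene pho1, whose identifier now belongs to the overlapping non-coding gene nc-pho1, was higher by 1.10 ± 0.10 (adjusted p = 4.21e-05).

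The ends without a named tlh gene held the deepest falls. The proline permease gene put4 read 8.35 and 8.19 in fkh2delta against 10.20 and 10.58 in wild type, a difference of -2.12 ± 0.13 (adjusted p = 5.30e-06). The amino acid transporter gene cat1, close to it at the right end of chromosome I, was lower by -2.07 ± 0.13 (adjusted p = 4.35e-06). The methyltransferase gene pcm2 was at least 1.37-fold lower, since it was not above background in fkh2delta (adjusted p = 4.39e-04). At the left end of chromosome II aes1 (-1.01 ± 0.09, adjusted p = 4.21e-05) and the hexose transporter gene ght7 (-0.64 ± 0.10, adjusted p = 6.33e-04) were lower.

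In fkh2-S2A the same 19 genes gave 10 higher and 0 lower than wild type in limma (11 and 0 at an unadjusted p below 0.05), beside 23.5% higher and 9.84% lower over all probe sets. The highest was aes1, which read 10.32 and 10.39 in fkh2-S2A against 8.27 and 8.19 in wild type (2.13 ± 0.09, adjusted p = 1.49e-05). It was followed by str3 (1.84 ± 0.30), gal10 (1.13 ± 0.15) and gal1 (0.99 ± 0.12). Of these 4, aes1 was lower in fkh2delta than in wild type and the other 3 were higher. Without wild-type replicate 2 the count was 7 higher, beside 8.41% over all probe sets.

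Between the mutants, fkh2-S2A had 13 of the 19 higher and 5 lower, beside 22.5% and 26.6% over all probe sets. This comparison uses the same fkh2delta arrays as the first, so it is no separate support for it. The largest difference was that of aes1 (3.13 ± 0.09, adjusted p = 8.72e-08), and the deepest fall was isp3, at least 5.42-fold lower in fkh2-S2A (adjusted p = 2.46e-06).

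**Figure D3:**
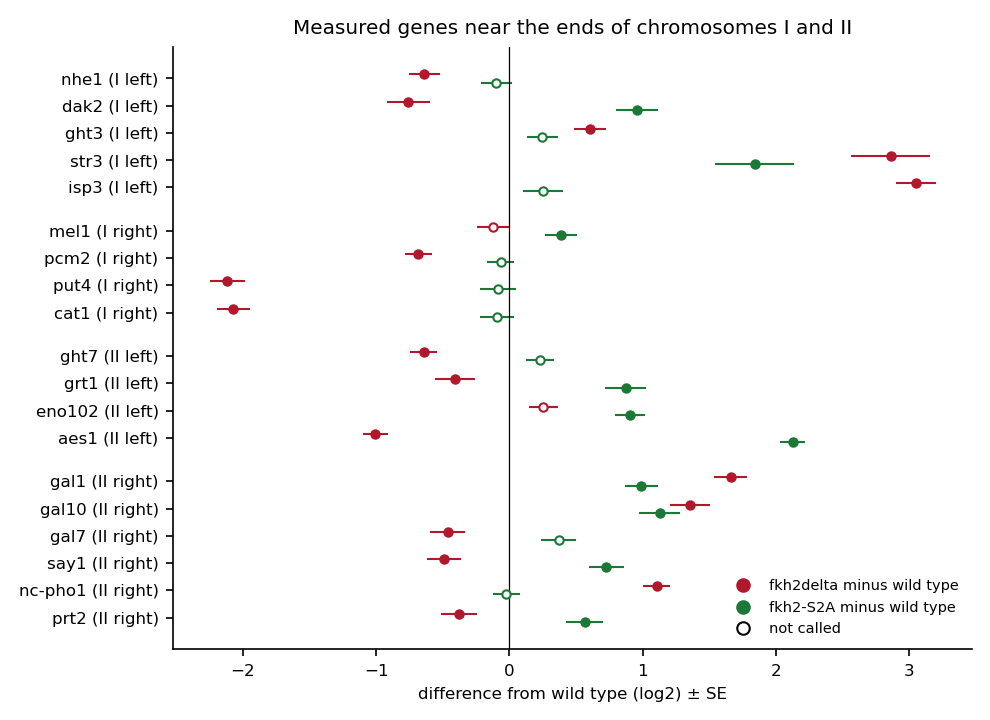
Difference from wild type (log2, ± SE of the limma fit) of the 19 named genes near the ends of chromosomes I and II in fkh2delta (red) and fkh2-S2A (green), ordered from each end inward. Filled points passed the test. The called fkh2delta points lie on both sides of 0 at the left end of chromosome I and the right end of chromosome II and below 0 at the other ends.

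Genes with roles in heterochromatin were measured on the same arrays, whether or not they act to keep the tlh genes silent. This list, like those of telomere proteins and helicases below, was chosen with earlier results of these data known. Counts and p-values of these lists therefore describe the arrays and are no independent support. Of 33 listed heterochromatin and silencing genes 31 had a probe set, and 17 were higher and 1 lower in fkh2delta than in wild type, beside 40.4% and 23.6% over all probe sets. The median of the list was 0.35, against 0.16 over all probe sets. After quantile normalization the counts were 10 higher and 7 lower, beside 32.9% and 30.4% over all probe sets at that setting, and the medians were 0.07 for the list and 0.03 for all probe sets.

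The highest rise was that of clr4, the histone H3 lysine 9 methyltransferase gene. It read 7.98 and 8.10 in fkh2delta against 6.57 and 6.51 in wild type, a difference of 1.50 ± 0.09 (adjusted p = 5.30e-06). Next in size were the helicase gene hrr1 at 1.38 ± 0.12 (adjusted p = 3.36e-05), tas3, a subunit of the RITS complex, at 1.36 ± 0.09 (adjusted p = 9.58e-06) and ers1 at 1.17 ± 0.13 (adjusted p = 9.60e-05). Of the other genes tied to RNA interference, dcr1 (0.94 ± 0.14, adjusted p = 5.03e-04), chp1 (0.56 ± 0.16, adjusted p = 0.0132) and stc1 (0.43 ± 0.12, adjusted p = 0.0100) were higher. The dcr1 call was lost in 1 of 13 settings and the stc1 call in 3, while chp1 lost its call in 2 and turned in 1. The genes rdp1 (0.08), cid12 (0.35), arb1 (0.24) and arb2 (0.31) did not pass. The HP1 gene swi6 rose by 0.53 ± 0.12 (adjusted p = 0.00477). The Argonaute gene ago1 was the 1 gene that fell (-0.62 ± 0.14, adjusted p = 0.00359). The genes named here other than clr4, hrr1, tas3 and ers1 lie outside the naming rule and were chosen after their values were seen.

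In fkh2-S2A 12 of the 31 genes were higher and 0 lower than in wild type in limma (15 and 0 at an unadjusted p below 0.05), beside 23.5% and 9.84%, and 5 were higher without wild-type replicate 2, beside 8.41% over all probe sets. The clr4 signal was 6.61 and 6.61 in fkh2-S2A and differed from wild type by 0.07 ± 0.09 (adjusted p = 0.622). Among the other genes ers1 rose by 0.82 ± 0.13 (adjusted p = 0.00318), and hrr1 (0.41 ± 0.12, adjusted p = 0.0335, lost in 6 of 13 settings) and tas3 (0.39 ± 0.09, adjusted p = 0.0153, lost in 3 of 13) also passed. Between the mutants 3 genes were higher and 7 lower in fkh2-S2A, beside 22.5% and 26.6%, and clr4 was the lowest of these at -1.43 ± 0.09 (adjusted p = 8.14e-06).

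Genes for telomere proteins, a list also chosen with earlier results known, were mostly higher in fkh2delta. Of 16 measured genes 12 were higher and 1 lower, beside 40.4% and 23.6%. Their median was 0.54, against 0.16 over all probe sets (0.31 against 0.03 after quantile normalization). The bouquet genes bqt2 and bqt1, which tie telomeres to the spindle pole body in meiosis, led the list. The bqt2 signal was 6.98 and 6.94 in fkh2delta against 4.35 and 4.65 in wild type, at least 3.06-fold higher (adjusted p = 1.25e-06), and bqt1 rose by 1.53 ± 0.14 (adjusted p = 3.12e-05).

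Among the genes that cap telomeres in growing cells, rap1 rose by 0.94 ± 0.15 (adjusted p = 6.96e-04) and poz1 by 0.84 ± 0.10 (adjusted p = 1.59e-04). Chosen after their values were seen, the telomere-binding gene taz1 rose by 0.42 ± 0.11 (adjusted p = 0.00719, lost without wild-type replicate 2), the telomerase catalytic subunit gene trt1 by 0.75 ± 0.10 (adjusted p = 2.34e-04), and bqt3, which fell, had -0.58 ± 0.10 (adjusted p = 0.00121). In fkh2-S2A 9 of the 16 were higher and 0 lower than in wild type in limma (9 and 0 at an unadjusted p below 0.05), beside 23.5% and 9.84%. That count was 2 after quantile normalization, where 15.1% of all probe sets were higher, and 1 without wild-type replicate 2, where 8.41% were. The bqt2 signal, 4.63 and 4.50 in fkh2-S2A, was below background there as in wild type. Between the mutants 2 were higher and 5 lower in fkh2-S2A, beside 22.5% and 26.6%.

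The other DNA helicases, a list also chosen with earlier results known, gave a mixed picture. Of 9 measured genes 3 were higher and 2 lower in fkh2delta, beside 40.4% and 23.6%. Their median was 0.23, against 0.16 over all probe sets (0.03 against 0.03 after quantile normalization). The gene rqh1, which encodes the RecQ helicase that resembles human BLM, read 8.95 and 8.92 in fkh2delta against 8.67 and 8.63 in wild type. Its difference of 0.28 ± 0.12 did not pass (adjusted p = 0.065), though it did in 4 of 13 other settings. The replication helicase gene dna2 (1.14 ± 0.10, adjusted p = 2.88e-05), the FANCM-type helicase gene fml1 (0.95 ± 0.14, adjusted p = 3.63e-04) and the TFIIH subunit gene ptr8 (0.60 ± 0.11, adjusted p = 0.00141) rose.

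The other TFIIH helicase gene, rad15 (-0.28 ± 0.10, adjusted p = 0.0397), and fbh1 (-0.33 ± 0.10, adjusted p = 0.0207) fell, calls lost in 6 and 3 of 13 settings. The values of chl1 (0.23 ± 0.15), pfh1 (0.20 ± 0.10) and srs2 (0.19 ± 0.10) did not pass, though chl1 did in 1 of 13 other settings. In fkh2-S2A 6 of the 9 were higher and 1 lower than in wild type, beside 23.5% and 9.84%, among them rqh1 (0.42 ± 0.12, adjusted p = 0.0287, lost in 5 of 13 settings). All 9 were above background on every array. Without wild-type replicate 2 the fkh2-S2A counts were 3 higher and 0 lower, beside 8.41% and 1.36% over all probe sets.

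**Figure D4:**
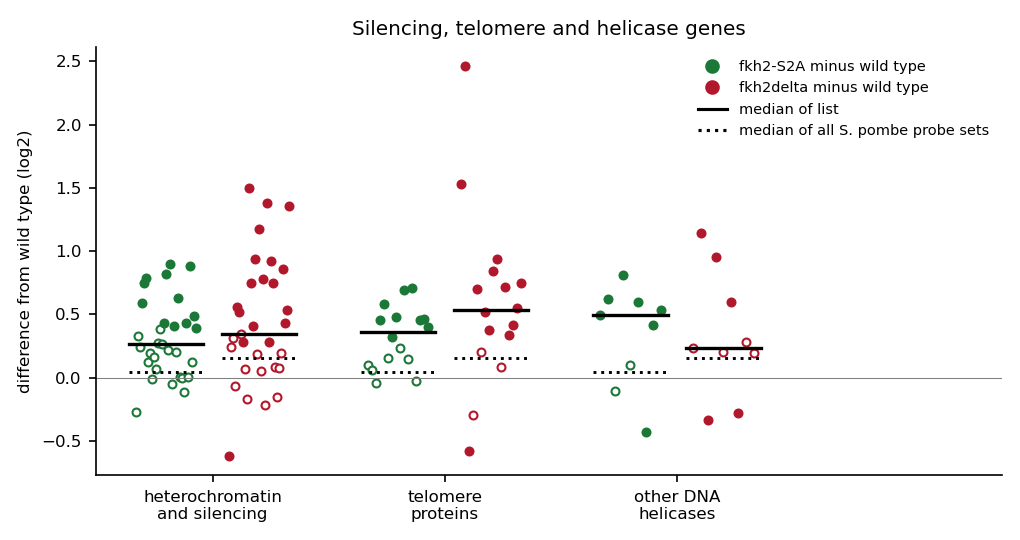
Difference from wild type (log2) of each measured heterochromatin, telomere protein and other DNA helicase gene in fkh2-S2A (green) and fkh2delta (red). Filled points passed the test, solid lines are list medians and dotted lines the median of all S. pombe probe sets. In fkh2delta the list medians are 0.35, 0.54 and 0.23 against 0.16 for all probe sets, and the highest single point is bqt2.

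Finally the profile of 1775967_at over the 6 arrays was set beside those of 704 other single-gene probe sets that spanned at least 1 log2 unit and were above background in at least 1 group. The 5 with the highest Pearson correlation were clr4 (r = 0.9996), mug125 (r = 0.9994), crp79 (r = 0.9991), cuf2 (r = 0.9990) and mde5 (r = 0.9983), each over 6 arrays. In all, 52 probe sets reached 0.99. Such values describe a shared step between fkh2delta and the other arrays, taken over 2 arrays a group, and not its size.

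The size of the step differed between these genes. The crp79 gene, which encodes an mRNA export factor with a role in meiosis, read 4.50 and 4.68 in fkh2-S2A, 7.65 and 7.78 in fkh2delta and 4.55 and 4.21 in wild type, at least 5.16-fold higher in fkh2delta than in wild type. Like the tlh2 probe set it was below background outside fkh2delta, and so was cuf2, a meiotic transcription factor gene, at least 4.31-fold higher in fkh2delta. The genes mug125 (2.03), clr4 (1.50) and mde5 (1.16) were above background on every array, with the fkh2delta minus wild type difference given for each.

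**Figure D5:**
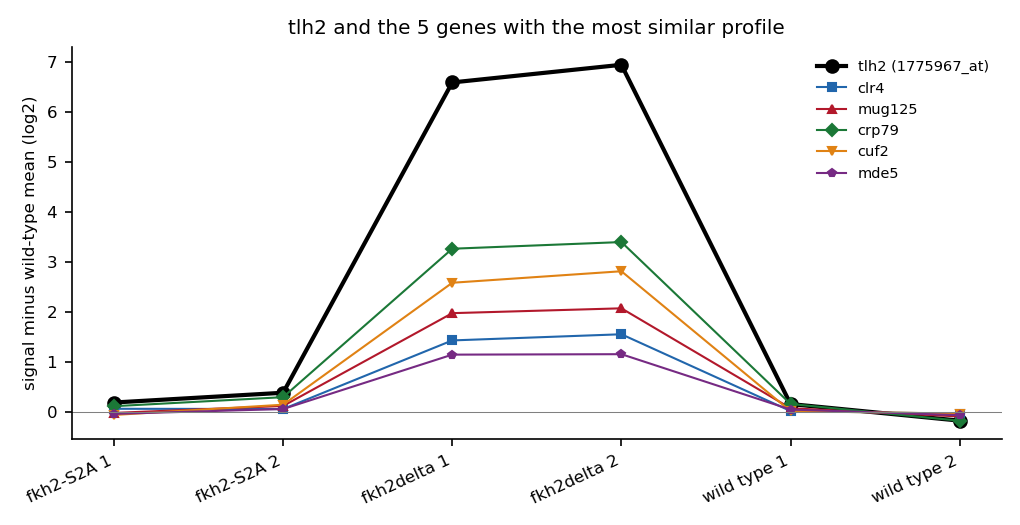
Signal minus the wild-type mean (log2) of 1775967_at and of the 5 genes with the most similar profile on each array. Lines join arrays of 1 gene only to guide the eye. All 6 profiles are high on the fkh2delta arrays alone. The wild-type readings of 1775967_at, crp79 and cuf2 are below background, so their steps give no exact size.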

How the data were processed

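Per probe set and array the authors deposited a single log2 value (the base was inferred from the range), and their normalization, summary method and software are not stated in the labels used here. Listed genes were matched to ASM294v3 by Entrez identifier or symbol (3 probe sets). This gave 2936 S. pombe probe sets, 2917 with 1 gene, and 5224 unlisted ones stayed unnamed. Group means of all 6 arrays were fitted as a linear model in limma 3.58.1 (R 4.3.3). Benjamini-Hochberg adjustment ran over the 2936 probe sets, with a threshold of 0.05, two-sided. The fit was also run on simulated data with independent noise and only a small part of the probe sets changed. That run differs from these arrays and does not vouch for the calls made on them. With 2 arrays against 2 an exact permutation test cannot go below p = 0.333. Bounds set each dim array to its background level. For a gene outside tlh1 and tlh2 the probe set with the highest mean stood.

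The members and lists were chosen with earlier results of these data known. All tlh probe sets were named, with the measured genes nearest each tlh gene (up to 5), up to 12 called subtelomeric genes, the 4 called genes of largest change in each other list, all helicases, and the 5 genes of highest correlation. Alternatives were quantile normalization, median centring, removal of the gene length trend, a filter on dim probe sets, a mean-variance trend, a fit on 2 groups, a block for the replicate number, arrays left out in turn, and a 50 kb window.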

Additional observations from a re-analysis of the deposited data

How the results depend on the processing

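Over 13 other settings, the fitted difference of the tlh2 probe set 1775967_at lay between 6.59 and 6.95 in fkh2delta against wild type, 0.11 and 0.46 in fkh2-S2A against wild type and -6.74 and -6.30 in fkh2-S2A against fkh2delta. The value of -6.74 came from removing the length trend. Leaving out 1 array at a time gave 6.59 to 6.95, 0.13 to 0.46 and -6.65 to -6.30 in these comparisons. For fkh2delta against wild type, 1779068_s_at ranged from 4.91 to 5.28 and 1775264_s_at from 1.47 to 2.26 over the 13 settings. The range of 1778554_at, not above background on any array, was 0.14 to 0.48 over 12 settings. The S. pombe probe sets called numbered 1407 to 1953, 287 to 921 and 980 to 1447 with 1 array left out, and the 287 came from leaving out wild-type replicate 2 (978 with it). Within 50 kb of the chromosome ends 2, 1 and 2 of 2 measured subtelomeric genes were called in these comparisons. Within 100 kb the counts were 17, 10 and 18 of 19. The 2 genes of the narrower window, ght7 and grt1, lie at the left end of chromosome II, away from the ends that carry tlh1 and tlh2.

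Some directions turned, and the cause was not tested. After quantile normalization chp1 had -0.029, arb2 -0.36, epe1 -0.56 and eno102 -0.46 in fkh2delta against wild type, while arb2 had 0.35 and gal10 0.30 in fkh2-S2A against fkh2delta. With 1 array left out the difference of 1778554_at between fkh2-S2A and fkh2delta ran from -0.50 to 0.033, the highest without fkh2-S2A replicate 1. The filter on dim probe sets removed 1778554_at.

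Same-numbered arrays did not deviate together (correlations of -0.18, -0.09 and -0.27 between groups). This gave no sign of pairing by number, but so few arrays cannot exclude it. With the replicate number as a block 1768, 836 and 1350 probe sets were called in fkh2delta against wild type, fkh2-S2A against wild type and fkh2-S2A against fkh2delta, against 1879, 978 and 1441 without it. The tlh2 difference with the block was 6.77, 0.29 (adjusted p = 0.186, limma) and -6.48.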
